A study of Mus musculus with 4 samples.

Results

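Ribosome biogenesis genes encode the nucleolar machinery that transcribes ribosomal RNA (rRNA), trims and modifies it, and assembles it with ribosomal proteins into the small (40S) and large (60S) ribosomal subunits. RNA polymerase I makes a single long precursor, small nucleolar ribonucleoproteins (snoRNPs) guide its modification, and separate sets of factors then build each subunit. In pluripotent cells this machinery is highly expressed, and it is a long-known target of growth signalling. A list of 45 mouse symbols was followed here, set by name but with earlier results of these data known. Of these, 44 were matched to a gene among the 14533 genes of the table, and Noc2l was not matched and is not analysed here. All 44 passed the filter on low values, with a mean of at least 606 normalised read counts over the 4 libraries.

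The table holds RNA sequencing of mouse embryonic stem cells (ESCs) kept in medium that contained serum (serum ESCs) or in a defined medium with inhibitors of the kinases MEK and GSK3 (2i ESCs). Adaptation to each condition had lasted more than 20 days, and both media contained the cytokine LIF. The methods describe sorting by the FUCCI cell cycle reporters in stable lines that were selected from R1 ESCs. The sample labels place the cells in late G1-phase, while the series text speaks of early G1-phase, and the labels do not say which cell line gave these libraries. There were 2 libraries per condition, which the series text calls biological replicates. Each p-value below sets the difference between conditions against the spread within conditions, estimated from 2 libraries each with help from other genes. All 8 ESC markers examined were detected in every library, among them *Pou5f1*, *Sox2* and *Nanog*, with summed levels of 50612 and 66496 normalised counts in serum against 54823 and 67558 in 2i. Of 7 primitive endoderm markers 4 were in the table, with summed levels of 72.0 and 109 normalised counts in serum against 332 and 256 in 2i. Of 6 fibroblast markers 3 were in the table, summing to 304 and 239 in serum and to 427 and 136 in 2i. Sox7, Dab2, Foxa2, Col1a2, Col3a1 and Twist2 had no row that was matched.

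The libraries held between 18939401 and 26570098 whole reads and differed in what those reads covered. The share of reads on protein-coding genes was 46.9% (replicate 1) and 76.3% (replicate 2) for serum ESCs, with 57.8% and 66.3% for 2i ESCs. The 44 ribosome biogenesis genes took 1.29% and 1.94% of the protein-coding reads for serum ESCs, with 0.851% and 1.04% for 2i ESCs. This share was thus larger in both serum libraries than in either 2i library, and the serum library with the larger share was also the one with the most protein-coding reads. *Npm1* and *Ncl* together held a large part of the reads of the 44 genes. Whether the make-up of the libraries took part in the difference was not tested.

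Most ribosome biogenesis genes had higher values in serum ESCs, by a modest amount. Values are relative to the other transcripts of a library, so fewer cells with a transcript and less of it per cell cannot be told apart. The log2 ratio of a gene is its mean log2(normalised count + 1) in serum minus that in 2i, given below with its standard error after the ± sign. Its median was 0.70 over the 44 genes, or 1.62-fold, against 0.0047 over all 13005 genes tested. Of the 44 genes 39 lay above 0 and 5 below, where 50.3% of all genes tested lay above 0 and 49.7% below. In 27 genes both serum libraries exceeded both 2i libraries, and in 0 genes both lay below, against 20.5% and 19.4% of all genes tested. A difference of more than 2-fold was found upward in 9 genes and downward in 0, against 9.89% and 15.9% of all genes. The list was named with earlier results of these data known, so these counts are descriptions without a test. The members are also well expressed, and among 5662 genes with a mean of at least 500 normalised counts 62.4% lay above 0, with a median of 0.21.

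**Figure D1:**
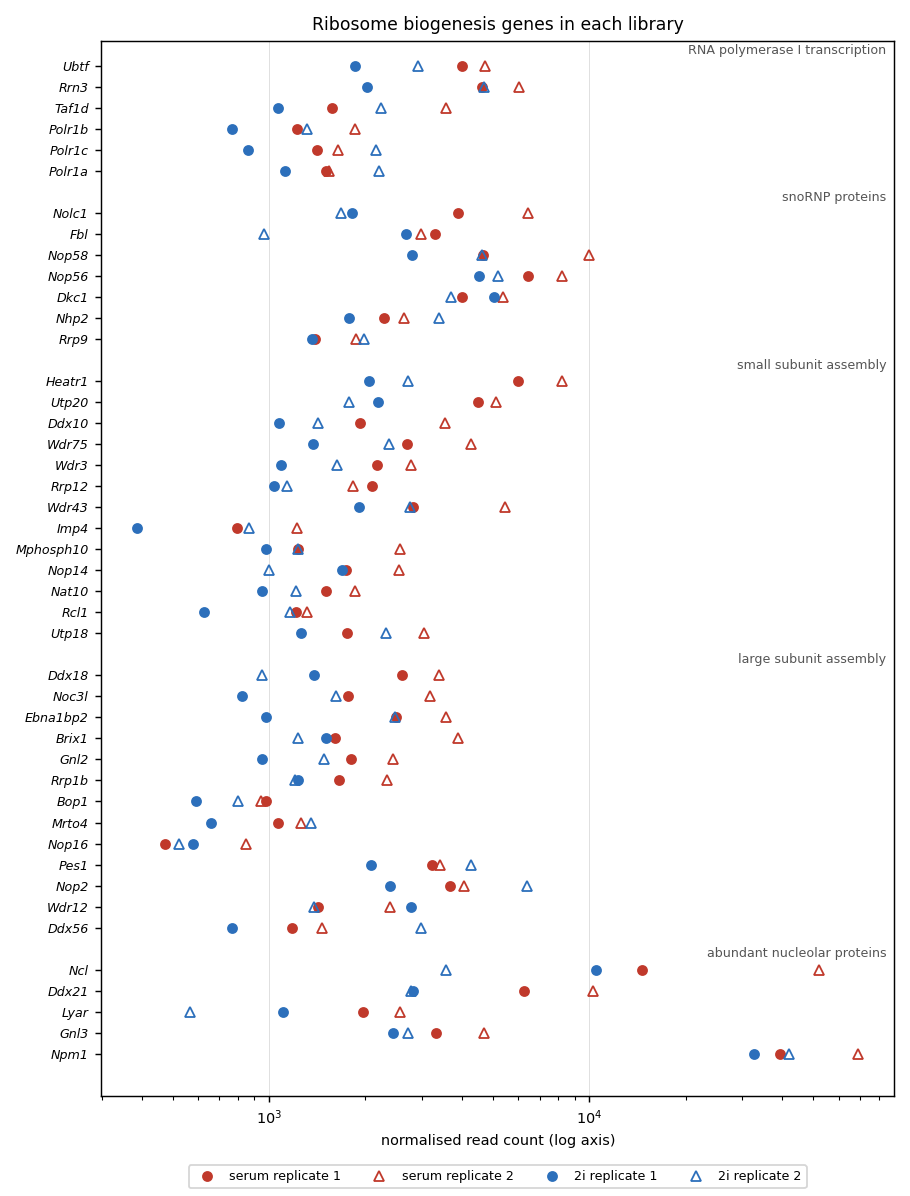
Normalised read count (log axis) of each of the 44 ribosome biogenesis genes in each library, with serum replicates in red, 2i replicates in blue, replicate 1 as filled circles and replicate 2 as open triangles. Genes are grouped by role and ordered by fold change within a role, and both red symbols lie to the right of both blue symbols in 27 of the 44 rows.

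No single gene passed the test. With limma, 0 of the 44 genes had an adjusted p-value under 0.05 together with a 2-fold change in either direction (0.0% of all genes tested higher in serum, 0.0154% lower), and the smallest adjusted p-value among them was 0.753. Without adjustment, 7 of the 44 combined a p-value under 0.05 with a 2-fold difference toward serum and 0 toward 2i, against 2.97% and 3.0% of all genes. On whole reads edgeR called 0 of the 44, and DESeq2 called 3, *Heatr1* (adjusted p-value 0.0147), *Ddx21* (0.0339) and *Nolc1* (0.0405), against 0.561% of all genes called higher in serum by DESeq2. The 7 genes are *Ncl*, *Heatr1*, *Nolc1*, *Ddx21*, *Lyar*, *Ddx18* and *Utp20*. Without serum replicate 2 the log2 ratio of each of the 7 was smaller, between 1.15 (*Nolc1*) and 1.35 (*Heatr1*).

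The difference between conditions was not much larger than the difference between replicates. Across the 44 genes serum replicate 2 exceeded serum replicate 1 by a median of 0.44 on the log2 scale, with 41 genes higher. Between the 2i libraries replicate 2 exceeded replicate 1 by a median of 0.48, with 31 genes higher. Serum replicate 1 exceeded 2i replicate 1 by 0.67 (41 of 44 genes), and serum replicate 2 exceeded 2i replicate 2 by 0.71 (36 of 44 genes). Across replicate numbers, serum replicate 2 exceeded 2i replicate 1 by 1.22 (43 of 44 genes), whereas serum replicate 1 exceeded 2i replicate 2 by only 0.12 (29 of 44 genes). Over all 13005 genes tested, replicate 2 exceeded replicate 1 by a median of 0.045 in serum and 0.031 in 2i. Serum replicate 2 was the highest library in 32 of the 44 genes, against 3936 of the 13005. The lowest was 2i replicate 1 in 31 of the 44, against 3619 of the 13005. For the 44 genes, leaving out serum replicate 2 gave a median log2 ratio of 0.43 and leaving out serum replicate 1 gave 0.96. The 2i libraries, left out in the same way, gave 0.49 (replicate 1) and 0.90 (replicate 2).

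**Figure D2:**
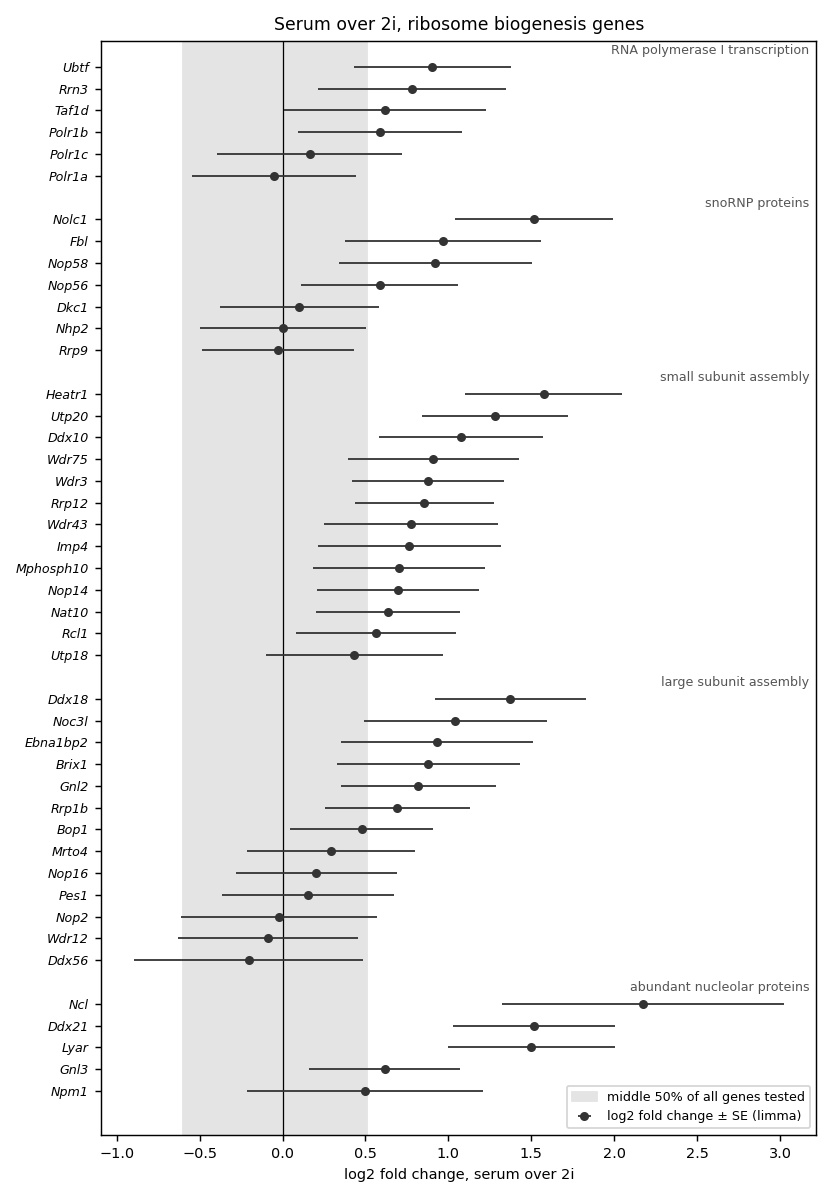
Log2 fold change of serum over 2i with its standard error (limma, 2 libraries per condition) for each gene, grouped by role. The grey band spans the middle 50% of all genes tested, from -0.60 to 0.51, and all 13 small subunit genes and all 5 abundant nucleolar protein genes lie to the right of 0.

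Promoter sequences of the genes were examined for 3 short motifs, since most of the genes lay on one side of 0. RefSeq windows from 250 bases before to 50 bases after the start (assembly GRCm38.p6, not the assembly of the read counts) were held for 39 of the 44 genes. Those without one were *Bop1*, *Fbl*, *Gnl2*, *Npm1* and *Rrp12*. CACGTG, the canonical E-box that reads the same on both strands and is bound by the MYC family among others, was found in 7 of 39 genes (17.9%), namely *Imp4*, *Nop2*, *Pes1*, *Rrn3*, *Utp18*, *Utp20* and *Wdr43*, against 12.4% of the 8509 tested genes with a window. TTTCCCGC, a form of the E2F site, was found on either strand in *Nolc1* and *Nop58* (5.13%, against 2.47%). TTTGGCGC, another form of the E2F site, was found in *Ncl* (2.56%, against 1.21%). These shares rest on 7, 2 and 1 genes, lie near those of all tested genes, and are descriptions. The CACGTG of *Pes1*, *Utp20* and *Wdr43* did not lie wholly upstream of the start, so these genes are not shown. Of those with an upstream motif, *Ncl*, *Nolc1* and *Nop58* are shown because they lay 1.89-fold or more higher in serum ESCs. *Nop2* and *Rrn3* are shown because they carry an E-box and differ in their values, as described below. Each line holds 80 bases upstream of the start, 5′ to 3′ on the strand of the gene, with the motif in capitals.
Ncl (chr1:86359626-86359705, minus strand; TTTGGCGC read on the opposite strand): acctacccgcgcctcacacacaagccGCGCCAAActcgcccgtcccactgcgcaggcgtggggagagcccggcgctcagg
Nolc1 (chr19:46075694-46075773, plus strand; TTTCCCGC): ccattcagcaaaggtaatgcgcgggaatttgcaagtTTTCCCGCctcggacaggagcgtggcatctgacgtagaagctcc
Nop58 (chr1:59684862-59684941, plus strand; TTTCCCGC read on the opposite strand): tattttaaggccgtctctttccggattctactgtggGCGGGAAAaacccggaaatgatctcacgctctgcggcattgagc
Nop2 (chr6:125131786-125131865, plus strand; CACGTG): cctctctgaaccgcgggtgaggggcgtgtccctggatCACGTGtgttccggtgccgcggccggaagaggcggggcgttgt
Rrn3 (chr16:13780614-13780693, plus strand; CACGTG): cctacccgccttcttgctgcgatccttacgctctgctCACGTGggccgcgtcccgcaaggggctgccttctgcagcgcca
The motif began 224 bases upstream of the start in *Ncl*, 117 in *Nolc1*, 108 in *Nop58*, 60 in *Nop2* and 48 in *Rrn3*.

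Among the 6 genes of RNA polymerase I transcription the median log2 ratio was 0.60, with 5 of the 6 above 0. Over all 44 genes it was 0.70. The groups overlapped for the core subunits. *Polr1a*, the largest catalytic subunit, had 1501 and 1538 normalised counts in serum against 1121 and 2211 in 2i (log2 ratio -0.05 ± 0.50). The 2i libraries thus lay on both sides of the serum ones. *Polr1b*, the second-largest subunit, had 1222 and 1849 in serum against 764 and 1310 in 2i, and *Polr1c*, a subunit that RNA polymerase I shares with RNA polymerase III, had 1413 and 1642 in serum against 857 and 2154 in 2i. *Ubtf*, which binds the rRNA gene promoter and body, had 4016 and 4733 in serum against 1859 and 2919 in 2i (log2 ratio 0.90 ± 0.47; limma, adjusted p-value 0.753). It was the only one of the 6 with both serum libraries above both 2i libraries (16.7%, against 20.5% of all genes tested).

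*Rrn3*, the initiation factor that couples the polymerase to its promoter and is a target of ERK and mTOR signalling, had 4627 and 6036 normalised counts in serum against 2015 and 4692 in 2i. Its groups overlapped by a small margin, since 2i replicate 2 stood just above serum replicate 1 (log2 ratio 0.78 ± 0.57). *Taf1d*, a subunit of the promoter selectivity factor SL1, had 1576 and 3564 in serum against 1069 and 2234 in 2i (log2 ratio 0.62 ± 0.61), so that replicate 2 exceeded replicate 1 within both conditions. All 6 genes were lowest in 2i replicate 1. Without that library the median of the 6 was 0.13, and it was 1.06 without 2i replicate 2.

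The median of the 7 snoRNP genes was 0.59, and 4 of them had both serum libraries above both 2i libraries, against 20.5% of all genes tested. Box C/D snoRNPs carry out 2′-O-methylation of rRNA, and 3 of their core proteins are members. *Nop58* had 4665 and 9968 normalised counts in serum against 2798 and 4633 in 2i (log2 ratio 0.92 ± 0.58), and its serum replicate 1 and 2i replicate 2 were nearly equal. *Nop56* had 6419 and 8229 in serum against 4518 and 5189 in 2i (log2 ratio 0.59 ± 0.47), with a clear gap between the groups. *Fbl*, the methyltransferase fibrillarin, had 3293 and 2992 in serum against 2669 and 963 in 2i (log2 ratio 0.97 ± 0.59), and this difference lay mostly in 2i replicate 2, without which it was 0.23.

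The other snoRNP genes included the largest difference of the class and the smallest. *Nolc1* (chromosome 19, 46150353 to 46160018, plus strand, assembly mm9), which encodes the nucleolar chaperone that snoRNPs bind in transit, had 3881 and 6435 normalised counts in serum against 1821 and 1672 in 2i. The 2i replicates were nearly equal and both lay more than 2-fold below the lower serum value (log2 ratio 1.52 ± 0.48; limma, unadjusted p-value 0.0172, adjusted 0.753). Box H/ACA snoRNPs convert uridine to pseudouridine. *Dkc1*, their pseudouridine synthase, had 3997 and 5361 in serum against 5031 and 3698 in 2i (log2 ratio 0.10 ± 0.48), and *Nhp2*, another core protein, had 2289 and 2635 in serum against 1774 and 3391 in 2i (log2 ratio 0.0018 ± 0.50). *Rrp9*, a protein of the U3 snoRNP that acts in cleavage of the precursor, had 1395 and 1866 in serum against 1359 and 1985 in 2i (log2 ratio -0.03 ± 0.46). In these 3 genes the groups overlapped.

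The 13 small subunit assembly genes were the most uniform class. All 13 lay above 0, between 0.43 and 1.57, with a median of 0.77, and the middle 50% spanned 0.21 on the log2 scale against 0.53 for all 44 genes and 1.11 for all genes tested. Both serum libraries exceeded both 2i libraries in 11 of them (20.5% of all genes tested), the exceptions being *Imp4* and *Utp18*. *Heatr1* (chromosome 13, 12487665 to 12530944, plus strand), the mammalian Utp10 homologue that is needed for precursor transcription and early processing, had 6005 and 8238 normalised counts in serum against 2059 and 2707 in 2i. The lower serum value was more than 2-fold above the higher 2i value (log2 ratio 1.57 ± 0.47; limma, unadjusted p-value 0.0143, adjusted 0.753), and between 1.35 and 1.80 remained when any 1 library was left out. *Utp20* (chromosome 10, 88209352 to 88289559, minus strand), a large scaffold of the small subunit processome, had 4476 and 5127 in serum against 2184 and 1777 in 2i, again with a wide gap (log2 ratio 1.28 ± 0.44; limma, unadjusted p-value 0.0252, adjusted 0.753).

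The remaining small subunit genes followed at smaller sizes. *Ddx10*, an RNA helicase that releases the U14 snoRNA, had 1924 and 3535 normalised counts in serum against 1074 and 1425 in 2i (log2 ratio 1.08 ± 0.50). The WD-repeat proteins of the processome stood close together, with log2 ratios of 0.91 ± 0.51 for *Wdr75*, 0.88 ± 0.46 for *Wdr3* and 0.77 ± 0.53 for *Wdr43*. *Wdr75* had 2686 and 4279 normalised counts in serum against 1370 and 2375 in 2i. *Rrp12*, which acts in late maturation and export of the subunit, had 2103 and 1834 in serum against 1036 and 1137 in 2i (log2 ratio 0.86 ± 0.42). Its replicates were close within both conditions, and leaving out any 1 library gave from 0.76 to 0.95, the narrowest range of the 13 genes.

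*Imp4* and *Mphosph10*, which form a complex with the U3 snoRNP, had log2 ratios of 0.76 ± 0.55 and 0.70 ± 0.52, *Nop14* of 0.70 ± 0.49, *Nat10*, the acetyltransferase of 18S rRNA, of 0.64 ± 0.43, and *Rcl1*, a processing factor of the 18S precursor, of 0.56 ± 0.48. *Utp18* was the smallest of the class, with 1749 and 3041 normalised counts in serum against 1256 and 2319 in 2i (log2 ratio 0.43 ± 0.53), and without 2i replicate 1 its difference was -0.0081.

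The 13 large subunit assembly genes with values had a median log2 ratio of 0.48, with 10 above 0 and 3 below. Of the 13 genes 7 had both serum libraries above both 2i libraries, against 20.5% of all genes tested. *Ddx18* (chromosome 1, 123450412 to 123464566, minus strand), a DEAD-box RNA helicase, had 2597 and 3401 normalised counts in serum against 1386 and 948 in 2i. It was the only gene of the class under an unadjusted p-value of 0.05 (log2 ratio 1.37 ± 0.46; limma, unadjusted p-value 0.0220, adjusted 0.753). *Noc3l*, which accompanies the early 60S precursor, followed with 1770 and 3186 in serum against 822 and 1615 in 2i (log2 ratio 1.04 ± 0.55). *Ebna1bp2* (0.93 ± 0.58), *Brix1* (0.88 ± 0.55), the GTPase gene *Gnl2* (0.82 ± 0.47) and *Rrp1b* (0.69 ± 0.44) had log2 ratios below 2-fold, each with both serum libraries on top. The margin was narrow for *Ebna1bp2*, with 2489 in serum replicate 1 and 2480 in 2i replicate 2. For *Brix1* serum replicate 1 had 1612 and 2i replicate 1 had 1503.

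The PeBoW complex, in which Pes1, Bop1 and Wdr12 act together in maturation of the large subunit rRNAs, did not lie to one side. *Bop1* had 977 and 944 normalised counts in serum against 593 and 802 in 2i (log2 ratio 0.48 ± 0.43). *Pes1* had 3220 and 3423 in serum against 2080 and 4283 in 2i (log2 ratio 0.15 ± 0.52). *Wdr12* had 1420 and 2387 in serum against 2775 and 1378 in 2i (log2 ratio -0.09 ± 0.55). For *Pes1* and *Wdr12* the gap between the 2i replicates was thus wider than that between the conditions. The same held for *Nop2*, a methyltransferase of 28S rRNA, with 3661 and 4062 in serum against 2392 and 6394 in 2i (log2 ratio -0.02 ± 0.59), and for the helicase gene *Ddx56*, with 1181 and 1461 in serum against 767 and 2987 in 2i (log2 ratio -0.20 ± 0.69). In *Nop2*, *Pes1* and *Ddx56* 2i replicate 2 was the highest of the 4 libraries and 2i replicate 1 the lowest. *Mrto4* (0.29 ± 0.51) and *Nop16* (0.20 ± 0.48) had small log2 ratios with overlapping groups.

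The 5 genes under the label abundant nucleolar proteins, whose protein levels were not measured here, had the highest median, 1.50. In 4 of the 5 both serum libraries lay above both 2i libraries, against 20.5% of all genes tested. *Ncl* (chromosome 1, 88241294 to 88256030, minus strand) encodes nucleolin, which binds nascent rRNA precursor. It had 14591 and 52140 normalised counts in serum against 10509 and 3559 in 2i. This was the widest difference of the 44 genes and also one of the least even between replicates, since replicate 2 minus replicate 1 came to 1.84 on the log2 scale in serum and to -1.56 in 2i (log2 ratio 2.17 ± 0.85; limma, unadjusted p-value 0.0407, adjusted 0.753). Leaving out serum replicate 1 raised the value to 3.09, and leaving out serum replicate 2 lowered it to 1.25.

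*Ddx21* (chromosome 10, 62042996 to 62065046, minus strand), a helicase that links RNA polymerase I and II transcription to rRNA processing, had 6230 and 10269 normalised counts in serum against 2811 and 2780 in 2i. Its 2i replicates were nearly equal and both lay well under the serum libraries (log2 ratio 1.52 ± 0.49; limma, unadjusted p-value 0.0198, adjusted 0.753). *Lyar* (chromosome 5, 38611709 to 38625545, plus strand), a nucleolar zinc-finger protein that is abundant in undifferentiated ESCs, had 1971 and 2555 in serum against 1109 and 567 in 2i (log2 ratio 1.50 ± 0.50; limma, unadjusted p-value 0.0230, adjusted 0.753). *Gnl3*, or nucleostemin, had 3320 and 4700 in serum against 2434 and 2723 in 2i (log2 ratio 0.62 ± 0.46). *Npm1*, the histone-binding chaperone nucleophosmin, had 39481 and 69130 in serum against 32769 and 41871 in 2i (log2 ratio 0.50 ± 0.71), and serum replicate 1 lay within the range of the 2i libraries. *Npm1* has processed pseudogenes, so its reads could have been divided among copies.

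Levels of different genes were compared as normalised counts per kilobase of transcript. *Npm1* stood far above the others, with 24177 and 42333 normalised counts per kilobase in serum against 20067 and 25641 in 2i. *Ncl* came next by its serum mean (1767 and 6315), followed by *Nop56* (3420 and 4384), *Nop58* (1803 and 3853) and *Fbl* (2836 and 2577). The serum values of *Ncl* and *Nop58* span those of other genes among these 4, so their order is not resolved, while both *Nop56* values lay above both *Fbl* values. The annotated *Ncl* transcript of 8257 bases is longer than that of any other member but *Utp20* (8831 bases). At the low end were *Polr1a* with 246 and 252 in serum, *Polr1b* with 306 and 462 and *Bop1* with 394 and 381, where only *Polr1a* lay below the range of the other two. The third polymerase subunit, *Polr1c*, had 1151 and 1338 in serum, still below the lowest value of the 3 box C/D genes, 1803.

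To describe whether the direction extends past the 44 genes, 123 other assembly factor genes were listed from their textbook roles. This list, too, was drawn up with earlier results of these data known, and its values come from the same 4 libraries. Of the 123 genes 121 were tested, and 103 lay above 0 with a median log2 ratio of 0.48, against 50.3% of all genes tested. Among all genes with a mean of at least 500 normalised counts 62.4% lay above 0, with a median of 0.21. With limma 0 of the 121 were called in either direction, as with edgeR and DESeq2 on whole reads, and 4 passed the same limits without adjustment, each toward serum, a share near the 2.97% of all genes tested. In 50 genes both serum libraries lay above both 2i libraries, and in 3 both lay below, against 20.5% and 19.4% of all genes tested. By role, 41 of 43 further large subunit genes lay above 0 (median 0.64), as did 34 of 39 small subunit genes (0.48), 8 of 12 snoRNP genes (0.47), 14 of 18 genes of rRNA trimming and decay (0.34) and 6 of 9 RNA polymerase I genes (0.33). The further large subunit genes thus had a higher median than the 13 on the first list, 0.48. Without 2i replicate 1 the median of the 121 was 0.20, and it was 0.78 without 2i replicate 2.

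At the upper end stood *Skiv2l2*, the helicase that feeds rRNA precursors to the exosome, with 1749 and 3528 normalised counts in serum against 798 and 915 in 2i (log2 ratio 1.54 ± 0.50). *Nol10*, a small subunit factor, had 1142 and 1846 in serum against 647 and 473 in 2i (log2 ratio 1.39 ± 0.47). *Ddx51*, a helicase of the large subunit pathway, had 426 and 542 in serum against 174 and 205 in 2i (log2 ratio 1.34 ± 0.47). In these 3 genes both serum libraries were clear of the 2i ones. At the lower end stood *Exosc2* of the exosome, with 1309 and 2341 in serum against 5697 and 1394 in 2i (log2 ratio -0.69 ± 0.74), where 2i replicate 1 alone was high. *Nop10*, the fourth core protein of box H/ACA snoRNPs, had 1574 and 1801 in serum against 3974 and 1732 in 2i (log2 ratio -0.64 ± 0.54), with the same library high. *Gltscr2*, the Nop53 homologue, had 1539 and 1494 in serum against 1812 and 2893 in 2i (log2 ratio -0.59 ± 0.46).

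The genes for the products that these factors assemble lay on the other side of 0. Over 74 cytoplasmic ribosomal protein genes the median log2 ratio was -0.51, with 8 genes above 0 and 66 below, and 24 with both serum libraries below both 2i libraries and 0 above, where 19.4% and 20.5% of all genes tested did so. With limma 0 of them were called, and 2 passed the limits without adjustment, both toward 2i, a share near the 3.0% of all genes tested. Their summed level was 647534 and 706909 normalised counts in serum against 762888 and 1448160 in 2i, so that 2i replicate 2 stood apart. Without that library the median was 0.0034, with 38 of 74 genes above 0, and the omission of 2i replicate 1 gave -1.15. For the ribosome biogenesis genes the summed level was 160226 and 272629 normalised counts in serum against 110611 and 136833 in 2i. A large part of it lay in *Npm1* (39481 and 69130 in serum, 32769 and 41871 in 2i) and *Ncl* (14591 and 52140, then 10509 and 3559). The direction of the ribosomal protein genes thus rested on 2i replicate 2. Of the 2i libraries, the assembly factors depended more on replicate 1, the lowest library in 31 of the 44 genes. Without 2i replicate 1 the median was 0.49 for the 44 genes and 0.20 for the wider list. Without serum replicate 2 it was 0.43 for the 44 genes, lower still, and 0.33 for the wider list. Serum replicate 1 minus 2i replicate 2 had a median of 0.12 for the 44 genes and -0.04 for the wider list. Ribosomal protein genes have many near-identical pseudogene copies, so single values are uncertain, and the difference between the lists was not tested.

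**Figure D3:**
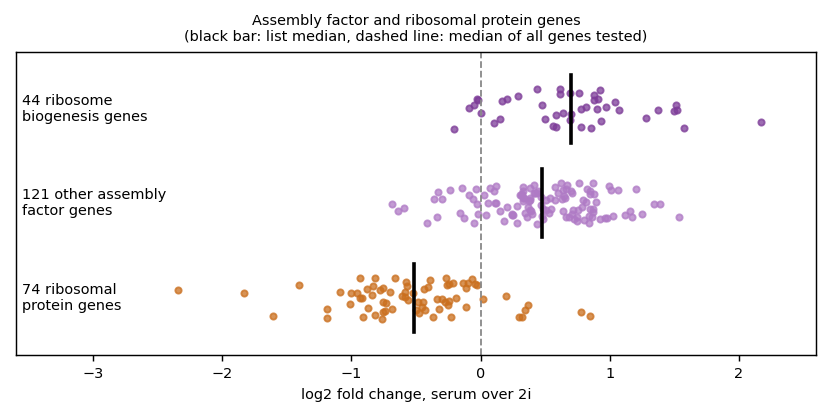
Log2 fold change of serum over 2i, 1 point per gene, for the 44 ribosome biogenesis genes, 121 other assembly factor genes and 74 cytoplasmic ribosomal protein genes. Points are spread vertically at random to be visible. The list medians (black bars) lie at 0.70, 0.48 and -0.51, and the dashed line marks the median of all genes tested.

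In serum ESCs the difference between replicates moved with the base composition of the transcripts, whose part in the fold changes was not tested beyond the correction given here. Across the 44 genes, the log2 difference of serum replicate 2 over serum replicate 1 correlated with the GC content of the transcript at a Pearson's r of -0.71, and at -0.24 across 11818 tested genes with a transcript sequence. These points share the same pair of libraries and are not independent. Of the 44 genes 41 were higher in serum replicate 2, by 1.84 for *Ncl* (43.0% GC) and by 0.42 for *Rrp9* (59.8% GC, the highest of the 44). Between the 2i libraries the same correlation was 0.20 for the 44 genes. The fold change of serum over 2i was itself larger for longer transcripts (r = 0.47 with log2 length over the 44 genes, 0.15 over all) and for GC-poor ones (r = -0.36, and -0.25 over all). After correction of each library for GC content and length the median of the 44 genes was 0.63 with 41 above 0, and that of the ribosomal protein genes was -0.26 with 18 above 0.

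**Figure D4:**
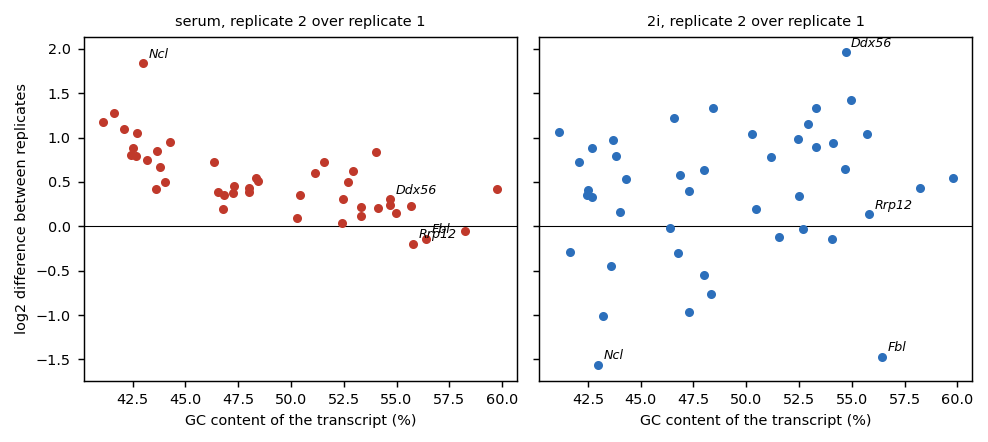
Log2 difference between replicate 2 and replicate 1 for each of the 44 ribosome biogenesis genes against the GC content of its transcript (%), in serum (left) and in 2i (right). In serum the difference falls from GC-poor to GC-rich transcripts (r = -0.71), and in 2i no such fall is seen (r = 0.20).

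Several of the genes overlap others, and the sources used here do not say whether counting used strand. Of the 44 genes 17 overlap another annotated gene and 11 of these a protein-coding one. The 27 without overlap had a median log2 ratio of 0.86, with 25 above 0. Small nucleolar RNA genes lie inside 7 members (*Ncl*, *Nop56*, *Nop58*, *Dkc1*, *Taf1d*, *Wdr43* and *Gnl3*), a common arrangement in which the snoRNA is cut from an intron. These 7 hosts had a median of 0.62, and the other 37 genes 0.70. Of 26 such snoRNA genes 5 were in the table, and all 5 were highest in 2i replicate 1. *SNORA8* in *Taf1d*, for example, had 274 and 19.4 normalised counts in serum against 2722 and 210 in 2i, whereas *Taf1d* itself was lowest in 2i replicate 1.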

How the data were processed

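RNA was measured in 4 libraries, 2 of serum ESCs and 2 of 2i ESCs, mapped to groups by sample title. The authors depleted rRNA, primed fragments at random, aligned single-end reads to mm9 with Bowtie, estimated expression with MMSeq and deposited a signal per gene, namely counts divided by a DESeq2 size factor per library. All columns had a sample. Each value was a whole multiple (within 0.05) of the step of its library, which gave whole reads for 100% of values. For serum replicate 1 the step was 1.00052, so close to 1 that it is less certain.

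Genes with a mean of at least 50 normalised counts in either condition (13005 of 14533) were tested with limma 3.58.1 (R 4.3.3) on log2(normalised count + 1) with a variance trend, serum minus 2i, and no replicate term. Benjamini-Hochberg adjustment ran over all of them, and genes were called at an adjusted p-value under 0.05 when the difference also exceeded 2-fold. This scale slightly understates changes of low genes. edgeR 4.0.16 and DESeq2 1.42.0 on whole reads were alternatives, with others on pseudocount, filter, scaling, block, GC content and length (mgcv 1.9.3) and left-out libraries. The fit was tried on simulated counts drawn independently for each gene. Recovery was required only at a spread below that of these data (common biological coefficient of variation 0.668), so no conclusion on power is drawn from it. No exact permutation test was used, since the smallest two-sided p-value it allows for 2 libraries against 2 is 0.333.

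Names and coordinates came from GENCODE vM1 (mm9), which held 14462 of the genes. Transcript length and GC content were those of the transcript with the longest coding sequence. The members and lists were chosen with earlier results of these data known. Any member could be named, with full statistics for those past the threshold and for the highest, lowest and most expressed of each role. Genes with an unadjusted p-value under 0.05 were added after their values were seen, as were other members given with values. Of the wider list, the 3 highest and 3 lowest were named. Intervals and floors were not needed, and depth ranged from 18939401 to 26570098 whole reads.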

Additional observations from a re-analysis of the deposited data

How the results depend on the processing

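The median of the 44 ribosome biogenesis genes was positive under every alternative run, from 0.43 when serum replicate 2 was left out to 0.96 when serum replicate 1 was, and between 35 and 42 genes lay above 0. Under upper quartile scaling it was 0.58, with the median of all genes at -0.12. The median of all genes was 0.072 under quantile normalization, -0.073 with edgeR, -0.062 with DESeq2, 0.12 at a mean of at least 200 and 0.21 at a mean of at least 500, the last chosen after seeing the data, as was the choice of genes without overlap. The medians of the role groups kept their sign without each library, and that of the abundant nucleolar proteins ranged from 1.02 to 1.69. Genes past the threshold and higher in serum numbered 3 of the 44 with DESeq2, and at an unadjusted p-value 7 of the 44, 4 of the wider list and 386 of all. For all genes the counts higher and lower in serum were 73 and 178 with DESeq2, 0 and 0 with edgeR and with GC content and length correction, 0 and 1 without trend, 0 and 4 at a mean of at least 200, and 390 were lower at an unadjusted p-value. Without any 1 library 0 and 0 were called. Of 900 values of 50 named genes (the 44 and 6 of the wider list) under 18 alternatives 865 kept their direction, and 35 values of 13 genes with small differences or uneven replicates reversed. The filters, the fit without trend and the replicate block cannot change the log2 ratio of a gene, so part of this agreement was fixed in advance. After GC content and length correction, with or without the replicate block, *Ddx56* was 0.036, *Nop2* 0.21, *Rrp9* 0.35 and *Dkc1* -0.16. Under upper quartile scaling *Dkc1* was -0.019. *Nhp2*, at 0.0018, was -0.012 with TMM, -0.12 with upper quartile, -0.16 with quantile and -0.0037 with protein-coding scaling, -0.098 with edgeR and -0.087 with DESeq2. *Polr1c* was -0.0044 with quantile normalization and -0.0060 with edgeR. Over the libraries left out in turn, *Ddx56* ranged from -1.18 to 0.77, *Nop2* from -0.73 to 0.69, *Polr1a* from -0.54 to 0.44, *Polr1c* from -0.50 to 0.83, *Nhp2* from -0.47 to 0.47, *Pes1* from -0.37 to 0.67, *Rrp9* from -0.30 to 0.25, *Mrto4* from -0.23 to 0.81 and *Utp18* from -0.0081 to 0.88, each lowest without 2i replicate 1 and highest without 2i replicate 2. *Wdr12* ranged from -0.59 to 0.42, *Nop16* from -0.22 to 0.63, *Dkc1* from -0.12 to 0.32 and *Exosc2* from -1.70 to 0.33. The cause was not tested, except that fewer samples enter where a library is left out.

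The labels number the libraries 1 and 2 in both conditions. Replicate 2 minus replicate 1 in serum correlated across genes with the same difference in 2i (r = 0.480, and 0.308 after GC content and length correction), but 2 such numbers are too few to establish pairing. A fit that added a replicate block called 44 of all genes higher in serum and 159 lower, and 3 and 7 with the correction added, while 0 of the 44 ribosome biogenesis genes were called in either. At the spread between these replicates, differences of the size seen for single members could not be told from 0 after adjustment with limma.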
